A study of Arabidopsis thaliana with 10 samples.

Results

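The column described here holds the transcript ratios of Arabidopsis thaliana leaves after 48 h in light absorbed chiefly by photosystem II (PSII light), in plants held until then in light absorbed chiefly by photosystem I (PSI light). Its members are the genes of array spots paired with exactly 1 gene, 644 genes among the 3261 features of the table, and 600 of them had a ratio above 0 at 48 h. Wild-type plants of the accession Col-0 grew on soil for 21 days under white light in short days of 8 h, with nights of 16 h, spent 3 days in PSI light, were sampled as a reference, and were then moved to PSII light. The same shift was sampled at 30 min, 2 h and 8 h, and the table also holds a white light column for it and 5 columns for the reverse shift. Material was pooled from 250 to 500 plants or more, and each time point rests on 3 experiments with separate filters and probes, according to the design text. The source label names thylakoid membranes, whereas the protocol describes total RNA from leaf material. The table holds ratios and no levels, so the leaf identity could not be checked against marker genes.

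Light that favours one photosystem changes the redox state of the plastoquinone pool, the electron carrier between photosystem II and photosystem I. PSII light reduces the pool and PSI light oxidises it. Plants answer within minutes by moving light-harvesting proteins between the photosystems, and over hours to days by changing the amounts of photosystem proteins, so that 48 h lies in the range of the slower response. Most subunits and antenna proteins named below are encoded in the nucleus and imported into the chloroplast.

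Each value is the log2 ratio of a spot minus the median log2 ratio of its column, and "times the median" is the same value without the logarithm. The ratio was read as plants at 48 h over plants sampled before the shift, a reading the design text makes likely and no label states. If it runs the other way, every sign turns, and the counts of genes above and below the median exchange places. The median ratio of this column was 0.588, the lowest of the 10, so a gene at the column median lies at −0.77 on the log2 scale as deposited. There is 1 column per condition, so no value below has a replicate error and no difference was tested.

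At 48 h, 70 of the 600 genes lay 2-fold or more above the column median and 25 lay 2-fold or more below it. Over all features with a ratio these shares were 13.6% above and 3.3% below, and over the genes they were 11.7% and 4.17%, so the shares of the genes were close to those of the array as a whole. In either direction, 15.8% of the genes and 16.9% of the features passed 2-fold. Spots paired with several genes gave 14.2% above and 2.73% below, and spots paired with none gave 14% and 3.25%. As deposited, 17 genes were 2-fold higher and 234 were 2-fold lower. The higher share of the 2-fold genes was 73.7% with centring, 80.6% with centring on the genes alone and 6.77% as deposited. It would be 26.3% with centring if the ratio runs the other way. It was 53.9% under quantile normalization, which gives every column the same distribution and left 21 genes 2-fold higher and 18 lower. That setting covers only the 551 genes with a ratio in all 10 columns. With centring, 67 of those 551 were 2-fold higher and 21 lower. It was 48.8% when a pseudocount of 0.432 was added to every ratio, zeros included. The 44 lower genes in that setting were the 44 listed at 0 at 48 h, and no gene with a ratio was 2-fold lower.

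The ratios were spread more widely at 48 h than at any earlier time of the shift. The interquartile range of the genes was 0.53, 0.63, 0.39 and 0.96 on the log2 scale in time order, and 0.76 in the white light column. The column also had the most genes listed at 0, namely 44 of 644, against 9 to 35 genes in the other 9 columns. The low median, the wide spread and the many spots at 0 occur in the same column, and their part in the counts was not tested. Of the 70 genes above the median by 2-fold, 40 were under 3-fold, 20 lay between 3-fold and 4-fold and 10 were at 4-fold or more. Of the 25 genes below, 21 were under 3-fold. The genes just inside the threshold were AT5G49800 and AT1G50510 at 2.01 and 2.02 times the median, and just outside it were AT2G04540 and UPP at 1.96 and 1.95 times. On the lower side AT1G35210 and AT2G36920 lay just inside at 0.499 times each, and AT5G64150 and AT5G43770 just outside at 0.504 and 0.508 times.

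**Figure D1:**
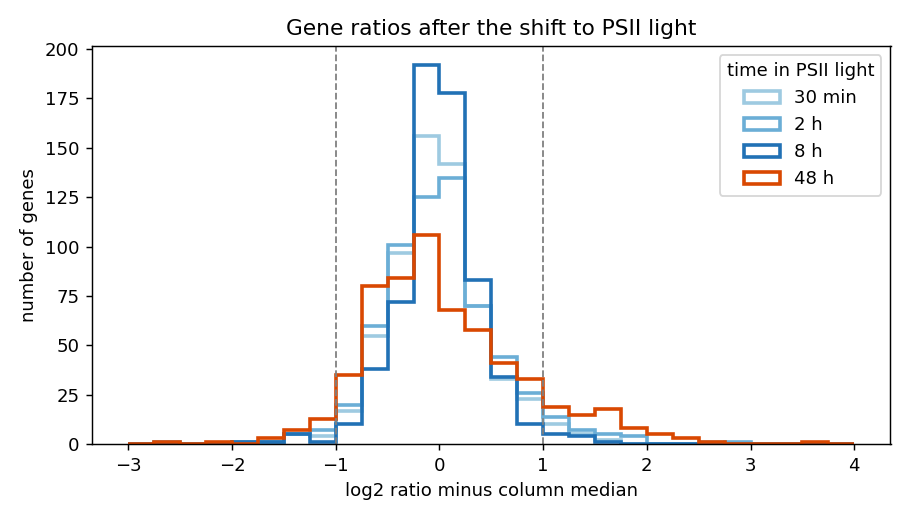
Number of genes (vertical axis) by log2 ratio minus the column median (horizontal axis, bins of equal width) for the 4 times in PSII light, with dashed lines at 2-fold. The curve of 48 h is the widest and has 70 genes beyond the upper line and 25 beyond the lower line.

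The highest genes at 48 h were also above the median at every earlier time. AT1G51350, for which the annotation gives no name, had log2 values of 2.51, 2.85, 1.65 and 3.50 from 30 min to 48 h. XERICO, a RING-type protein that raises abscisic acid content, followed at 6.06 times the median, and DI21, a gene found in drought-treated plants, lay at 4.80 times. NdhS, a subunit of the chloroplast NADH dehydrogenase-like (NDH) complex that passes electrons from ferredoxin into the plastoquinone pool, had values of 0.99, 1.14, 0.55 and 2.26 in order of time. NTRC, the chloroplast thioredoxin reductase that takes its electrons from NADPH, had 0.67, 1.69, 1.15 and 2.03. Relative to the column medians, each of these 5 genes had its highest value of the 4 times at 48 h. As deposited this held for XERICO and NdhS, whereas AT1G51350, DI21 and NTRC were highest at 2 h, with 2.74, 1.495 and 1.27 at 48 h, against 2.76, 1.79 and 1.59 at 2 h. The other 10 of the 15 highest, all without a gene name in the annotation, were AT4G32060, AT3G52070, AT4G16410, AT2G31800, AT4G39690, AT4G27510, AT2G18920, AT4G00170, AT2G46190 and AT1G13990, between 3.59 and 4.93 times the median. For the 15 genes together the median log2 value was 0.96, 1.31, 0.95 and 2.10 in the same order, and 1.86 in white light. All 15 were also 2-fold or more higher as deposited, after quantile normalization and with the pseudocount.

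The lowest genes at 48 h were partly near the median at the earlier times and partly low throughout. AT3G52550 lay at 0.150 times the median and AT2G23160 at 0.216 times, and their earlier values were between −0.34 and 0.06. GH9B16, which encodes a glycosyl hydrolase of the family that holds the plant cellulases, had −0.43, −0.01, 0.38 and −1.59 from 30 min to 48 h. AT4G02040 had −0.01, 0.06, −0.01 and −1.56, and AT5G62550 had 0.00, −0.09, −0.12 and −1.25. By contrast, AT4G31930 was 2-fold or more below the median at all 4 times, with −1.40, −1.20, −1.37 and −1.65. DRT101, named for DNA damage repair and toleration, had −0.88, −1.17, −0.20 and −1.40. The other 8 of the 15 lowest were AT2G26340, AT5G49120, AT4G22650, AT1G11820, AT3G43610, AT4G07670, AT3G17950 and AT4G16060, with values from −1.43 to −1.18 at 48 h. For 14 of the 15 the value at 48 h was the lowest of the 4 times, and the exception was AT4G22650, with −1.38 at 30 min and −1.28 at 48 h. In the white light column AT4G31930 and AT2G26340 lay lower than at 48 h, with −2.05 and −1.46. All 15 were 2-fold or more below as deposited. After quantile normalization all 12 with a value were. AT4G31930, AT2G26340 and AT1G11820 had none, because each lacked a ratio in at least 1 of the 10 columns. With the pseudocount 0 were. That setting placed no gene with a ratio 2-fold below, so it cannot show whether these low values hold.

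**Figure D2:**
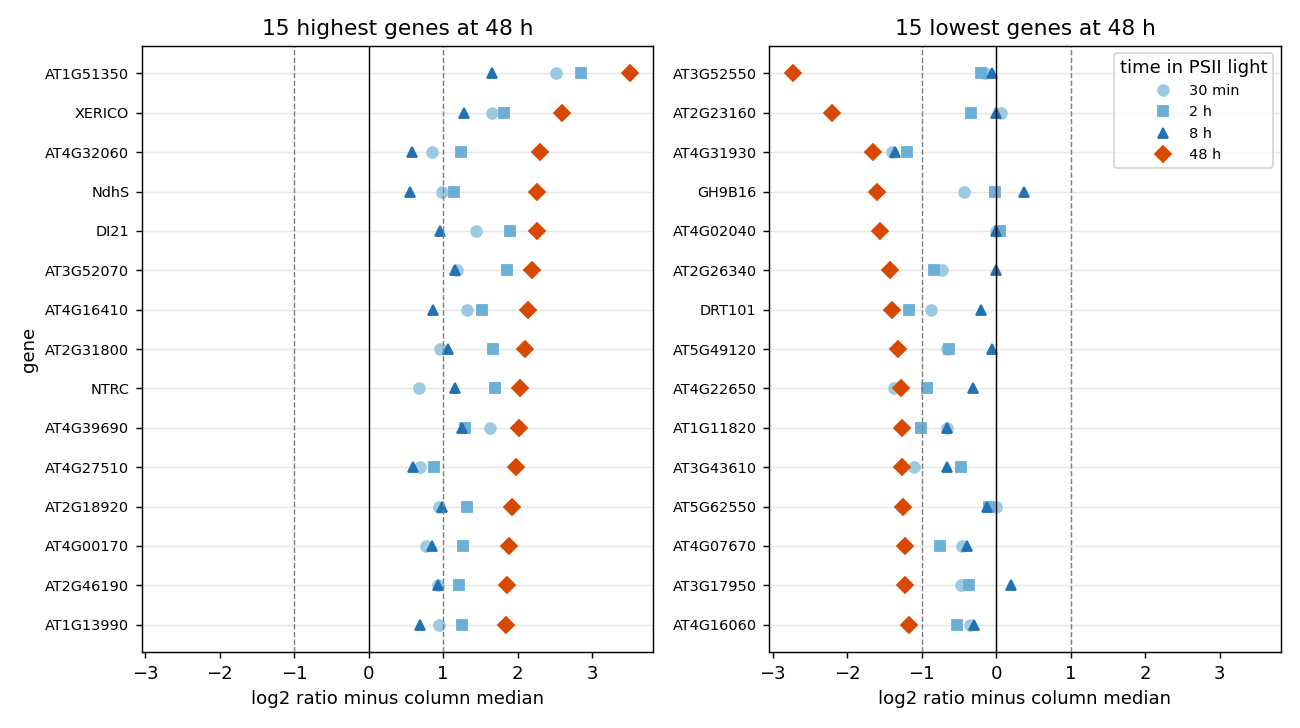
Log2 ratio minus the column median (horizontal axis) for the 15 highest and the 15 lowest genes after 48 h (rows), with a marker for each time point and dashed lines at 2-fold. The highest genes lie right of 0 at all 4 times, whereas AT3G52550, AT2G23160 and AT4G02040 lie near 0 until 48 h.

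Followed back in time, the 70 higher genes were mostly above the median early on, and many were already far from it. Their median log2 value was 0.71, 0.91 and 0.46 at 30 min, 2 h and 8 h. Of the 70, 18 were 2-fold or more above at 30 min, 29 at 2 h and 9 at 8 h, against background shares over all features of 3.77%, 6.49% and 2.16%. In the white light column 37 were, against 8.45% of features. At 34 of the 70 this held at 1 or more of the earlier times, and at 6 it held at all 3. Another 12 of the 70 stayed within 1.5-fold of the median at all earlier times: CCL, PSBY, AT4G27700, AT3G26580, AT3G25840, PSBW, AT4G29890, AT2G37510, THIC, AT2G44760, AT3G57630 and AT5G49800. Of the 25 lower genes, 3 were 2-fold or more below at 30 min, 3 at 2 h, 1 at 8 h and 7 in white light, against background shares of 1.71%, 2.73%, 1.91% and 5.48%. Of these 25, 5 were 2-fold or more below at 1 or more of the earlier times, 1 was so at all 3, and 14 had stayed within 1.5-fold. For both sets, the shares over all features were not counted for criteria that join the 3 earlier times. Whether those joint counts are unusual for the array therefore cannot be told. The design text has the reference taken before the shift, so these columns may share it and their values are not independent.

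The difference between 48 h and the mean of the 3 earlier times does not depend on that reference if the 4 columns share it. Of 588 genes with a ratio at all 4 times, 23 were 2-fold or more higher at 48 h than their earlier mean and 11 were 2-fold or more lower, which is 3.91% and 1.87%, against 5.49% and 1.46% of all features. The 8 largest positive differences belonged to CCL with 1.52, PSAN with 1.47, AT4G32060 with 1.42, AT5G27860 with 1.41, AT3G26580, NdhS and PSBY with 1.37 each, and PSBW with 1.29. CCL, named CCR-like after its likeness to a clock-regulated gene, had 0.41, 0.27, −0.08 and 1.72 from 30 min to 48 h. Among the 8 are 3 photosystem subunits and 1 NDH subunit. The 8 most negative differences belonged to AT3G52550 with −2.60, AT2G23160 with −2.11, AT4G02040 with −1.58, GH9B16 with −1.57, AT5G66050 with −1.31, AT5G62550 with −1.18, AT3G50880 with −1.07 and AT2G41950 with −1.04. As deposited, the 48 h median lay 0.73 below the earlier mean of medians on the log2 scale, and then no gene was 2-fold higher and 170 were 2-fold lower. With quantile-normalized values, which 551 genes had, 4 genes were 2-fold higher and 9 lower.

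The 6 photosystem and light-harvesting genes all lay higher at 48 h than at 8 h. PSBW, a small photosystem II subunit, had 0.04, 0.11, −0.43 and 1.19 from 30 min to 48 h. PSBY, another small subunit of photosystem II, had 0.05, 0.24, −0.17 and 1.41. PSAN, a lumenal subunit of photosystem I, had −0.08, −0.96, −0.54 and 0.94. PSBW, PSBY and PSAN thus lay at 1.92 to 2.65 times the median at 48 h and below it at 8 h. LHB1B2, an antenna protein that binds chlorophyll for photosystem II, had −0.25, −1.47, −1.38 and 0.08, so it was near the median at 48 h and 2-fold or more below it at 2 h and 8 h. Its spot may also read near-identical members of the same gene family. PSB27, a lumenal protein that binds photosystem II during assembly and repair, had −0.37, −0.38, −0.61 and 0.46. LPA19, a homologue of PSB27 that acts in the assembly of photosystem II, had 0.18, 0.14, 0.18 and 0.66.

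Each of the 6 was above the median at 48 h, with a list median of 0.80 against −0.08 for all genes. Of the 6, 2 passed 2-fold, namely PSBW and PSBY, against 13.6% of all features. As deposited PSBW had 0.42 and PSBY 0.64, after quantile normalization they had 0.66 and 0.80, and 0 of the 6 passed 2-fold under either. The list median was 0.03 as deposited and 0.45 after quantile normalization. The list median was −0.02, −0.13 and −0.48 at the earlier times and 0.55 in the white light column, where PSBY had 0.81, PSAN 0.74 and PSBW 0.73. The difference of 48 h minus 8 h lay between 0.49 for LPA19 and 1.62 for PSBW, and it was 2-fold or more for 5 of the 6, against 60 of 600 genes. It was above 0 in all 6, against 49.2% of all genes. After quantile normalization the difference was also above 0 in all 6, against 37.9% of the 551 genes with a value. Like the other lists, this list was chosen with earlier results of these data known, so these shares are no independent test of the group. As deposited, the same difference lay between 0.09 and 0.64 for 5 of the genes and was −0.49 for LPA19. Among the genes with a ratio, PSBW stood at percentile 90.9 at 48 h and 10.6 at 8 h, and PSAN at 87.4 at 48 h and 7.8 at 8 h. In the column for 48 h of PSI light, PSBW, PSBY and PSAN had −2.96, −0.74 and −1.31, LHB1B2 had −3.44, LPA19 had 0.03 and PSB27 had 1.23. They were not low throughout PSI light. At 30 min of it PSBW, PSBY, PSAN and LHB1B2 had 0.83, 1.09, 0.91 and 1.20, LPA19 had 0.11 and PSB27 had −1.21. At 8 h, in the same order of the 6 genes, the values were 0.89, 0.84, −0.31, 0.22, −0.09 and −0.16.

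**Figure D3:**
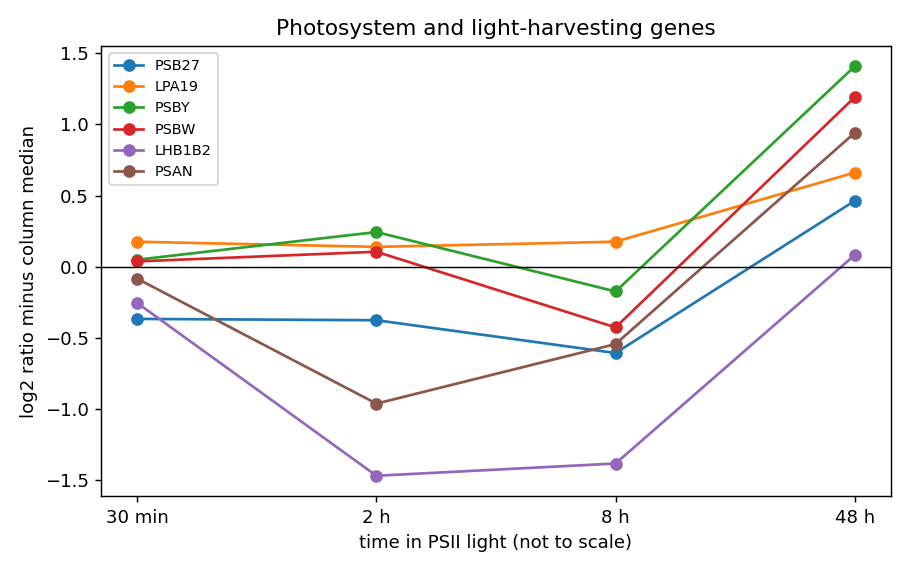
Log2 ratio minus the column median (vertical axis) of the 6 photosystem and light-harvesting genes over the time in PSII light (horizontal axis, not to scale), with a line for each gene. All 6 lines end at 48 h above their value at 8 h.

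Of the genes of carbon fixation and sugar metabolism, 4 of 5 had a ratio at 48 h and all 4 were above the median, with a list median of 0.48. AT5G58330, annotated as the NADP-dependent malate dehydrogenase, which exports reducing power from the chloroplast and is switched on by thioredoxin, lay at 2.20 times the median. ATSPS4F, a sucrose-phosphate synthase, had 0.66, PRK, the phosphoribulokinase of the Calvin-Benson cycle, had 0.31, and PPDK, the pyruvate orthophosphate dikinase, had 0.26. SBPASE, the sedoheptulose-bisphosphatase of the same cycle, was listed at 0 at 48 h and had a ratio in the other 9 columns. As deposited the list median was −0.28, so its side depends on the centring.

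Among the 5 genes of tetrapyrrole and carotenoid synthesis, 2 passed 2-fold above, AT1G74470 and HEMA3, against 13.6% of all features. AT1G74470, annotated as geranylgeranyl reductase, which makes the phytol chain of chlorophyll, lay at 2.66 times the median. HEMA3, a glutamyl-tRNA reductase gene of the first committed step of tetrapyrrole synthesis, lay at 2.24 times. SIRB, the ferrochelatase of the branch to siroheme, had 0.53. CHLM, the methyltransferase of the magnesium branch, had −0.22, and Z-ISO, an isomerase of carotenoid synthesis, had −0.72. The list median was 0.53, and it was −0.23 as deposited.

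The redox list was split between NTRC and its other members. NTRC had 2.03, whereas the other 5 lay between −0.57 and −0.46. These were GLX2-1, a glyoxalase, SRX, the sulfiredoxin that repairs overoxidised peroxiredoxins, CCS, the copper chaperone of superoxide dismutase, CHL, the chloroplast lipocalin, and GLDH, the last enzyme of ascorbate synthesis. None of the 5 passed 2-fold relative to the median, and the list median was −0.48. As deposited all 5 were 2-fold or more lower, between −1.33 and −1.23, NTRC was higher with 1.27, and the list median was −1.24. The value of NTRC relative to the median at 48 h of PSI light was 1.00, the highest of the 15 top genes there.

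NdhS was likewise alone in the NDH list. NdhN, another subunit of the complex, had −0.12. CRR41 and PIFI, factors needed for NDH assembly or activity, had 0.14 and 0.43, and CRR21 and OTP85, pentatricopeptide repeat proteins that edit NDH transcripts, had −0.34 and −0.15. The list median was 0.01, and −0.76 as deposited, and 1 of 6 members passed 2-fold. Of the 8 organelle gene expression factors, AT5G55580, annotated as the transcription terminator-like protein mTERF9, was the only one past 2-fold, at 3.20 times the median. OTP70, a pentatricopeptide repeat protein that acts in plastid splicing, had 0.92 and PAC, which is needed for chloroplast RNA maturation, had 0.44. The 3 lowest of the list were CRR21 with −0.34, ATAB2, which aids the translation of photosystem transcripts, with −0.54, and OSB1, a mitochondrial DNA-binding protein, with −0.78.

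Metabolic genes of amino acids, nucleotides, vitamins and sulfur had a list median of 1.04. Of its 6 measured members 3 were past 2-fold above, against 13.6% of all features. The list is mixed and was chosen with earlier results of these data known. AT-HF, an enzyme of histidine synthesis, lay at 3.27 times the median, and it had 0.69, 1.68, 1.29 and 1.71 from 30 min to 48 h. APS4, an ATP sulfurylase of sulfate assimilation, lay at 2.27 times. THIC, which makes the pyrimidine part of thiamine, lay at 2.18 times, after values of 0.24, 0.15 and 0.27. UPP, a uracil phosphoribosyltransferase, had 0.97, CYN, the cyanase, had 0.27, and CBL, the cystathionine beta-lyase of methionine synthesis, had −0.77. ETFQO, a mitochondrial electron-transfer protein, was listed at 0 at 48 h alone. As deposited the list median was 0.28 and none of the 3 passed 2-fold, with 0.94 for AT-HF, 0.41 for APS4 and 0.36 for THIC. After quantile normalization the list median was 0.62, and 0 of the 5 members with a value passed.

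The drought and osmotic stress list, chosen in the same way, held 2 of 4 genes past 2-fold, XERICO and DI21, against 13.6% of all features. Its other members were MAMI, a membrane protein induced by mannitol, with 0.25, and SIS, a salt-induced serine-rich protein, with −0.17. The list median was 1.26, and 0.49 as deposited, where XERICO and DI21 still passed 2-fold. Of the plastid biogenesis genes, FZL, a dynamin-like protein that shapes thylakoids, lay at 2.76 times the median. SPPA, a thylakoid protease, had 0.19, TPP2, tripeptidyl peptidase II, had −0.23, SECE1, a subunit of the thylakoid protein translocase, had −0.27 and Cpn60beta4, a chaperonin subunit, had −0.62. The chaperonin subunit Cpn60beta3 was listed at 0 at 48 h alone. The list median was −0.23.

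The 18 genes of transcription, chromatin, cell cycle and DNA repair leaned below the median, with 13 below, 5 above and a list median of −0.35, against 330 below and 270 above among all genes. DRT101 was the only member past 2-fold. DRT100, another gene named for DNA damage toleration, had −0.85 after 0.14, 0.15 and 0.26 at the earlier times. The histone gene AT1G09200 had −0.78. The highest members were the nodulin homeobox gene AT4G03090 with 0.61, and the MADS-box genes AGL103 and AGL26 with 0.39 and 0.38.

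In the remaining lists few genes passed 2-fold. CML30, a calmodulin-like protein, lay at 2.62 times the median and was the only one of 8 measured signalling genes past 2-fold. GLR2.7, a glutamate receptor-like channel, had 0.70 and CML41 had 0.51, whereas ATSIK, a protein kinase, IQD22 and SWAP70 had −0.25, −0.32 and −0.38. RALFL32, a signalling peptide, was listed at 0 at 48 h alone. Of the cell wall enzymes, GH9B16 was past 2-fold below, GH9B8 had −0.97, CSLA01 had −0.42, GH9B12 had 0.14 and GH9B11 had 0.89. The 4 measured members of the membrane traffic and nuclear pore list lay between −0.58 and −0.17. They were PRA1.B3, PRA1.B6, the gene annotated as MON1 (AT2G28390) and ATATH8, and SEH1H was listed at 0. ATATH8 is counted as listed, and a role of it in membrane traffic was not checked. LpxA and FATB, which act in lipid A type and fatty acid synthesis, had 0.85 and −0.11, and CKS was listed at 0. Of the 91 genes in the 14 lists, 85 had a ratio, with 15 past 2-fold above and 2 below. Among the 515 genes with a ratio in no list the counts were 55 and 23, and the shares over all features were 13.6% and 3.3%. Lists and members were chosen with earlier results of these data known, so listed genes cannot be set fairly against the others. Of the 15 listed higher genes, 4 were also past 2-fold as deposited and 4 after quantile normalization. Both times these were XERICO, DI21, NdhS and NTRC. FZL had no quantile-normalized value, because it lacked a ratio at 2 h of PSI light. With the pseudocount, 9 of the 15 stayed past 2-fold. As deposited, 31 listed genes were 2-fold or more lower.

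**Figure D4:**
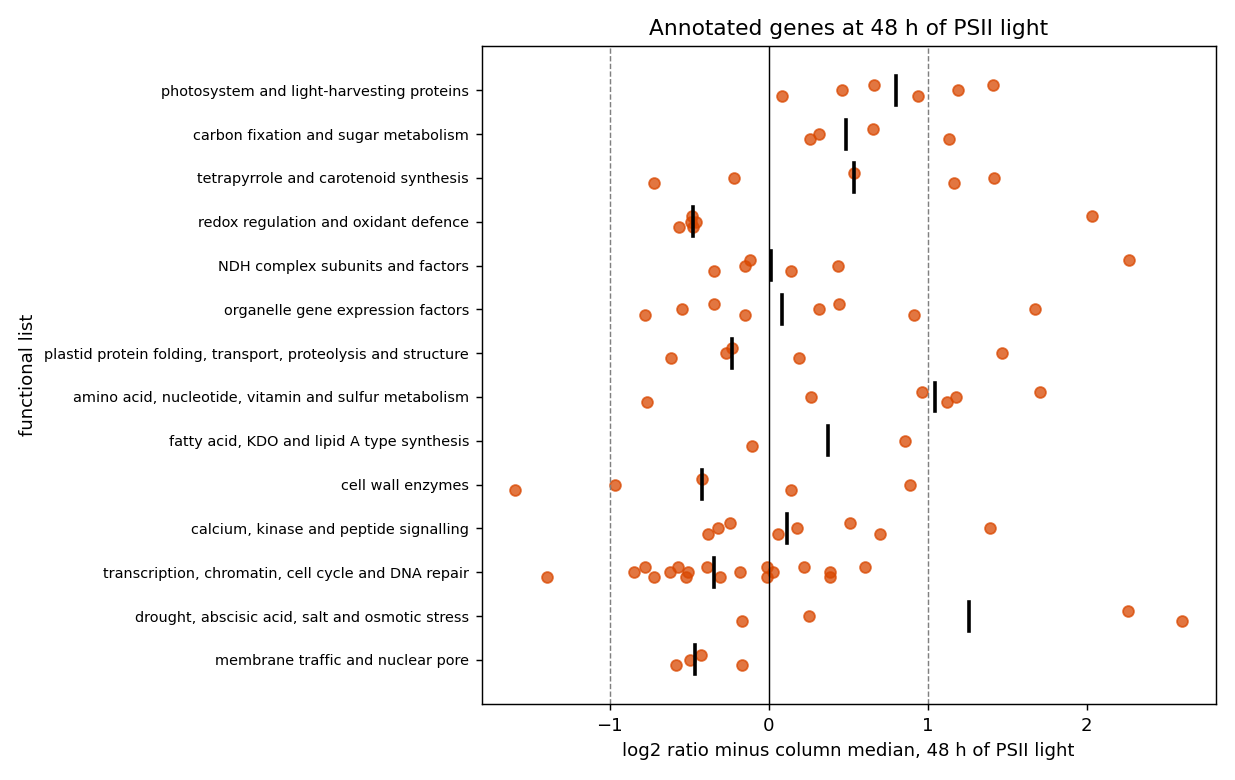
Log2 ratio minus the column median (horizontal axis) after 48 h for the listed genes with a ratio (points) by functional list (rows), with a black bar at the list median and dashed lines at 2-fold. The points of the photosystem list all lie right of 0, and NTRC and NdhS lie far right of the other members of their lists.

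Genes at 0 were counted separately because a 0 can be a failed estimate. Of the 44 genes listed at 0 at 48 h, 3 were at 0 in all 10 columns, 24 in 1 to 8 others, and 17 in this column alone. The 17 were SBPASE, Cpn60beta3, ETFQO, RALFL32, AT1G05340, AT1G07850, AT1G29040, AT1G69910, AT1G79220, AT2G38950, AT3G11150, AT3G17550, AT4G37420, AT5G19540, AT5G48110, AT5G62840 and AT5G63490. Of the 44 genes, 28 had a ratio at all 3 earlier times of the shift. Of the 44, 20 were also at 0 in white light and 9 in the 48 h column of PSI light.

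At 48 h of the opposite shift, 16 of the 70 higher genes lay 2-fold or more below the median and 1, AT3G50180, lay 2-fold or more above it, against background shares over all features of 7.3% below and 4.68% above. Of the 69 with a ratio there, 51 were below the median. Of the 25 lower genes, 1 was 2-fold above it, AT3G43610, and none was 2-fold below. Earlier columns of PSI light differed for the 70 higher genes. At 30 min 61 of 69 lay above the median, 9 of them 2-fold or more, against 145 of 3108 features. By 8 h 60 of 69 did, 17 of them 2-fold or more, against 244 of 3104 features. At 2 h 49 of 68 lay below it, 4 of them 2-fold or more, against 65 of 3163 features. The widest contrast belonged to AT4G39690, with 2.01 at 48 h of PSII light and −3.46 at 48 h of PSI light, followed by AT4G31530 with 1.49 and −3.30. The shifts have different references, as the design text describes them, and across the 2962 features with both values Pearson's r was −0.29. Against the 2 h column of PSI light r was −0.30 across 2975 features and −0.36 across the 592 genes. Against the 30 min, 8 h and white light columns of that shift it was 0.47, 0.54 and 0.37 across features. The log2 medians of the PSI light columns as deposited were −0.47, 0.16, −0.54 and 0.33 in time order, and −0.17 in white light. So within the PSI light columns r was negative where the median was above 0 and positive elsewhere. This did not hold for the columns of PSII light. Its 8 h column had a median of 0.21 and an r of 0.53. For its 30 min, 2 h and white light columns r was 0.74, 0.77 and 0.74, with medians of −0.23, −0.10 and −0.33. The relation of r to the column medians was not tested. With the 48 h column of PSI light inverted, the genes on opposite sides would lie on the same side of the median in both.

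**Figure D5:**
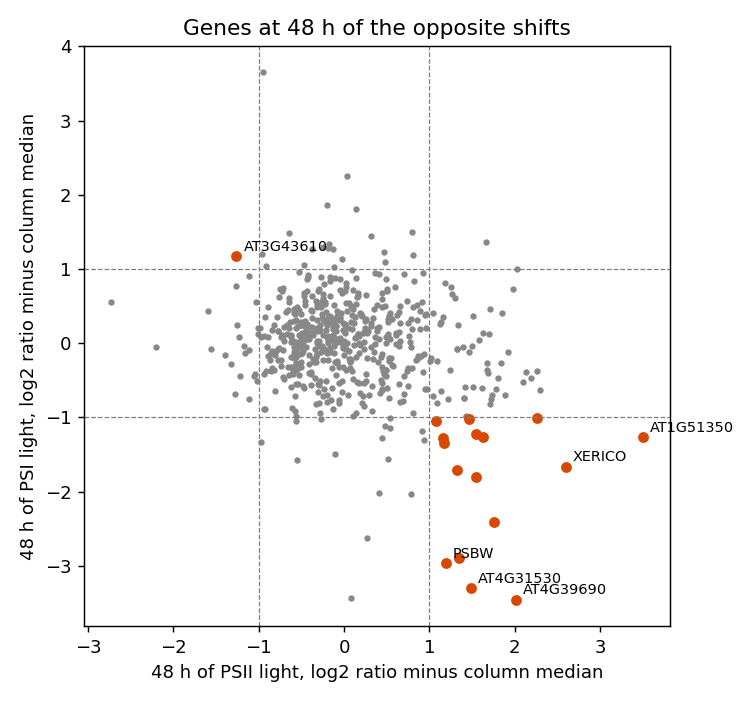
Log2 ratio minus the column median after 48 h of PSII light (horizontal axis) and after 48 h of PSI light (vertical axis), with a point for each gene and dashed lines at 2-fold. Orange points mark the 17 genes that lie 2-fold or more on opposite sides of the median, 16 at the lower right and AT3G43610 at the upper left.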

How the data were processed

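The authors deposited 1 linear ratio per spot of a nylon filter array hybridised with 33P-labelled cDNA, which per the labels sets a condition against a reference. How the authors corrected background, scaled the filters and combined the 3 experiments into 1 column is unknown from these sources, and depth or signal over background is unknown. The number of arrays limits the precision. Ratios of exactly 0 were treated as missing, log2 was taken and the column median over all features was subtracted. The platform annotation gave 1 gene for 645 of 3262 spots, several for 829 and none for 1788. RefSeq's TAIR10.1 gene table held 643 of the 645, and DAL1 and AT1G03660 kept their annotated names. The 2 spots of AT2G25870 were averaged, which left 644 genes and 3261 features. No build is named in the files, and coordinates are left out.

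With 1 column per condition no test was run. A 2-fold difference was used for counts, beside the share of all features past it. Named genes were the 15 highest and 15 lowest at 48 h, the 8 highest and 8 lowest differences from the earlier mean, all members of lists with up to 6 genes and the 3 highest and 3 lowest of longer lists, genes at 0 at 48 h alone or in a list, and the 2 nearest on each side of 2-fold. Outside this rule, genes flat at the earlier times, genes on opposite sides in both shifts and AT3G50180 were named after their values were seen. The 14 lists of 91 genes use RefSeq names. Members and lists were chosen with earlier results of these data known. Alternatives were centring, quantile normalization, a pseudocount of 0.432, other thresholds, other gene sets and other earlier times. The centring and counting steps were tested on simulated data. Python 3.11.15, pandas 2.3.3 and numpy 2.4.6 were used.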

Additional observations from a re-analysis of the deposited data

Results flagged for a closer look

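At 48 h, 17 genes lay 2-fold or more on opposite sides of the column median in the 2 shifts. The difference was not tested, since each shift has 1 column at 48 h. Above the median in PSII light and below it in PSI light were AT1G51350 (log2 values of 3.50 and −1.26), XERICO (2.60 and −1.66), NdhS (2.26 and −1.004), AT4G39690 (2.01 and −3.46), AT4G17070 (1.76 and −2.41) and AT2G27290 (1.63 and −1.26). The same held for AT4G09620 (1.55 and −1.80), AT4G25290 (1.54 and −1.22), AT4G31530 (1.49 and −3.30), FZL (1.47 and −1.03), AT4G19900 (1.35 and −2.89) and AT4G08940 (1.32 and −1.71). It also held for PSBW (1.19 and −2.96), AT4G29890 (1.17 and −1.34), AT3G09850 (1.16 and −1.27) and AT2G37750 (1.08 and −1.05). AT3G43610 lay below the median in PSII light with −1.26 and above it in PSI light with 1.17. All these values are from the 48 h columns. At 30 min and 8 h of PSI light, most of the 70 genes 2-fold higher at 48 h of PSII light lay above the median. They numbered 61 and 60 of 69.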

How the results depend on the processing

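The counts at 48 h depend on where the column is centred and how widely it is spread, and the cause of these changes was not tested. As deposited, 17 genes were 2-fold higher and 234 lower (123 and 1047 features), against 70 and 25 genes (408 and 99 features) relative to the median. Of the 2-fold genes, 16 higher and 19 lower were also past 2-fold at an earlier time, against 34 and 5. The share over all features was not counted for this criterion. With quantile normalization over features with all 10 values the counts were 21 and 18 genes, 138 and 63 features, and 16 and 3 genes also past 2-fold earlier. With the pseudocount, zeros included, they were 42 and 44 genes, 229 and 261 features, and 16 and 16. The 44 lower genes and 261 lower features were those listed at 0 at 48 h. The pseudocount therefore cannot show whether the low ratios hold. At 1.5-fold they were 124 and 97 genes, 714 and 422 features, and 85 and 42, and at 3-fold 30 and 4 genes, 172 and 15 features, and 9 and 0. Centring on the genes alone gave 79 and 19 genes. Only genes with all 10 values gave 67 and 21, of which 32 and 3 were past 2-fold earlier.

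For 48 h against the earlier mean, 23 genes were 2-fold higher and 11 lower. As deposited the counts were 0 and 170, against 8 h alone 60 and 19, at 1.5-fold 91 and 58 and at 3-fold 0 and 2. Without 8 h in the earlier mean 11 were higher and 8 lower, and without 30 min or 2 h 28 and 33 were higher and 12 and 12 lower. Quantile normalization, chosen for this comparison after seeing the data, gave 4 and 9 of 551 genes. Lists with a median above 0 numbered 9, 3 as deposited, and 7 to 10 otherwise. The 15 highest and 15 lowest genes stayed past 2-fold the same way in 30 cases as deposited. After quantile normalization 27 did, which is every one with a value, since AT4G31930, AT2G26340 and AT1G11820 had none. With the pseudocount 15 did, all 15 on the higher side, and no gene with a ratio was 2-fold lower in that setting. Of the named genes and list medians that were past 2-fold relative to the median, none changed sign under these scalings, whereas several nearer the median did as deposited, such as PSB27, LHB1B2 and PRK with −0.30, −0.68 and −0.45. Ratios carry no levels, so low genes could not be filtered. No paired analysis was possible because each condition has 1 column and the labels carry no replicate numbers.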
